A study of Arabidopsis thaliana with 6 samples.

Results

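The fasciclin-like arabinogalactan proteins (FLAs) of Arabidopsis were followed in leaves of *rse1-1* plants and of wild-type L*er* plants (WT). The 10 genes *FLA1*, *FLA2*, *FLA7*, *FLA8*, *FLA9*, *FLA10*, *FLA11*, *FLA12*, *FLA13* and *FLA17* were taken by their locus from the 33602 loci counted. A mean of at least 10 counts over the libraries was reached by 7 of the 10, and the other 3 are given as not measured. The nearest to this limit were *FLA8* above it, with a mean of 32.2 counts, and *FLA10* below it, with a mean of 3.00 counts.

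FLAs are cell surface proteins that join fasciclin domains, known from animal cell adhesion proteins, to stretches rich in proline that are hydroxylated and carry arabinogalactan glycans. Many are held at the outer face of the plasma membrane by a glycosylphosphatidylinositol (GPI) anchor, and members of the family act in wall formation, cell expansion and adhesion. *FLA11* and *FLA12* are best known from the stem, where they act in the secondary walls of xylem and fibres.

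The *rse1-1* group consisted of 3 libraries and the WT group of 3 libraries, all of polyA RNA from leaves 3 and 4, taken 16 days after sowing and before visible yellowing. Plants grew in soil at 22 °C under 16 h of light and 8 h of darkness, without further treatment. *rse1-1* is an EMS allele in the L*er* background whose C-to-T change puts a premature stop codon into *RSE1* (AT5G22070), a gene of the GT14-like glycosyltransferase family. It is a single allele, and no complemented line was sequenced in this series, so other EMS changes of the line cannot be told apart from the *RSE1* allele here. The study calls the libraries biological replicates. How many plants each library pooled is not given in the sources used here.

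*rse1-1* libraries held 10360028 to 15244500 counts on genes and WT libraries 9960144 to 11626752. The limit that a count of 0 leaves, 3 counts at 95% confidence, corresponded to 0.197 to 0.301 CPM, the count of a gene relative to the scaled total of its library, and covers counting error only. The *RSE1* locus had 290, 219 and 264 counts in *rse1-1*, against 563, 552 and 667 in WT (log2 fold change -1.47, SE 0.0832, adjusted p = 5.33e-10, edgeR quasi-likelihood test, adjusted by Benjamini-Hochberg over the 16294 genes tested). Of 9 mesophyll markers 8 were measured, among them *LHCB4.1* with 2456 ± 279 CPM in *rse1-1* and 4020 ± 209 CPM in WT (SD, n = 3 each), while the defining marker *LHCB1.3* stood at 0 in all 6 libraries. The 3 pollen markers summed to at most 0.0796 CPM in *rse1-1* and 0.295 CPM in WT.

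The alignment target was a L*er* sequence that the authors derived from Col-0, and whether a gene was counted went with its place on the chromosome. Of the protein-coding genes, 28.1% of 5575 in the first 5 Mb of a chromosome had a mean under 10 counts, against 45.4% of 21137 past it. *FLA7*, *FLA9*, *FLA11* and *FLA17* lie in the first 5 Mb and the other 6 genes lie past it. Within 250 kb of the first 4 genes, 20.0% to 37.5% of protein-coding genes had a mean under 10 counts, and around the other 6 it was 37.7% to 62.0%. The ranges nearly touch, with 37.5% around *FLA7* and 37.7% around *FLA8*. Counts of the 4 genes near the chromosome starts are therefore given first. For every gene named below that lies past the first 5 Mb, and for *RSE1*, which also lies past it, whether the counts came from that gene or from loci beside it was not tested.

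The coding sequences of these 4 genes (RefSeq, TAIR10.1) are shown at the 90 bases with the most proline codons that directly follow an alanine, serine or threonine codon, since such pairs are the sites where FLAs can carry arabinogalactan. Capitals mark those proline codons. The sequence is that of Col-0, and whether L*er* differs from it in these windows was not tested. The *FLA7* window lies at chr2:1677524-1677613 on the plus strand, the *FLA9* window at chr1:982712-982801 on the minus strand, the *FLA11* window at chr5:753054-753143 on the minus strand and the *FLA17* window at chr5:1953608-1953697 on the plus strand.
FLA7: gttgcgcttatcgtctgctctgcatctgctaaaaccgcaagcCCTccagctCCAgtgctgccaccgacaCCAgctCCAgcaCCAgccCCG
FLA9: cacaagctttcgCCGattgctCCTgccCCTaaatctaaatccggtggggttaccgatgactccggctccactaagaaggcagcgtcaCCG
FLA11: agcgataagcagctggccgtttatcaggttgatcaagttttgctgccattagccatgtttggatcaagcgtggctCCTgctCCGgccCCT
FLA17: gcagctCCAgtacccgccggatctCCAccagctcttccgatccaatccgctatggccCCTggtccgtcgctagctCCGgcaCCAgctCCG
The windows hold 6, 4, 3 and 6 such codons in the order printed. Over the whole coding sequence, *FLA7* has 13 in 254 codons, *FLA9* 10 in 247, *FLA11* 6 in 246 and *FLA17* 11 in 458. Per 100 codons these are 5.12, 4.05, 2.44 and 2.40. Among the other 6 genes the density ran from 1.74 in *FLA2* to 5.71 in *FLA8*.

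All 4 genes near the chromosome starts fell in *rse1-1*, to between 20.6% and 35.0% of their WT level. Changes were common among all genes, since 77% of the 16294 genes tested were called, that is, reached an adjusted p-value under 0.05. Lower calls made up 38.3% of the genes tested, and 40% of the 4137 tested in the first 5 Mb. With a log2 fold change below -1 as well, they made up 14.9% there, and all 4 FLA genes of that region met this rule. None of the 4 overlapped between the genotypes, where 39.5% of all genes tested were lower without overlap. The median log2 fold change of the 4 was -1.80, against -0.03 over all genes tested in the first 5 Mb. On the log2 scale *FLA9* and *FLA7* fell by more than *FLA11* and *FLA17*, whose changes lay within 1 standard error of each other. In bulk leaves, fewer cells of a type and less RNA per cell cannot be told apart.

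*FLA9* (AT1G03870, chr1:982381-983544, minus strand) encodes a short FLA with a single fasciclin domain. It had 413, 272 and 392 counts in *rse1-1*, against 1366, 1368 and 1575 in WT. Scaled for depth, these were 26.8, 26.3 and 31.2 CPM in *rse1-1*, against 138, 135 and 136 CPM in WT. The highest *rse1-1* library stood far below the lowest WT library, and the WT libraries were close to each other. The mean was 28.1 ± 2.69 CPM in *rse1-1* and 136 ± 2.00 CPM in WT (SD, n = 3 each), a log2 fold change of -2.27 (SE 0.0790, edgeR adjusted p = 2.49e-12).

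*FLA7* (AT2G04780, chr2:1676717-1678455, plus strand) encodes another short FLA. Its level was 21.2, 26.4 and 30.5 CPM in *rse1-1*, against 104, 111 and 108 CPM in WT, from 326, 273 and 383 counts in *rse1-1* and 1030, 1127 and 1251 counts in WT. The *rse1-1* libraries spread more widely around their mean than the WT libraries did, and all were lower than each WT library. The mean was 26.0 ± 4.67 CPM in *rse1-1* and 108 ± 3.24 CPM in WT (SD, n = 3 each), with a log2 fold change of -2.06 (SE 0.104, edgeR adjusted p = 1.58e-10).

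*FLA17* (AT5G06390, chr5:1952505-1955796, plus strand) belongs to a group of longer FLAs, with *FLA15*, *FLA16* and *FLA18*, that have a pair of fasciclin domains and lack a GPI anchor signal. It had 41.8, 47.9 and 43.8 CPM in *rse1-1*, against 127.0, 128 and 126 CPM in WT. Within each genotype the libraries were close to each other, and the genotypes were well apart. The mean was 44.5 ± 3.11 CPM in *rse1-1* and 127 ± 1.08 CPM in WT (SD, n = 3 each), with a log2 fold change of -1.52 (SE 0.0721, edgeR adjusted p = 7.74e-11).

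*FLA11* (AT5G03170, chr5:752750-753657, minus strand), the FLA of stem secondary walls, had the fewest counts of the 4 genes. They were 107, 101 and 90 in *rse1-1*, against 232, 239 and 255 in WT, or 6.96, 9.77 and 7.17 CPM in *rse1-1*, against 23.5, 23.5 and 22.0 CPM in WT. The genotypes did not overlap, although 1 *rse1-1* library stood above the other two. The mean was 7.97 ± 1.57 CPM in *rse1-1* and 23.0 ± 0.901 CPM in WT (SD, n = 3 each), with a log2 fold change of -1.55 (SE 0.130, edgeR adjusted p = 4.61e-08). *FLA11* overlaps *P58IPK* (AT5G03160), a gene for an endoplasmic reticulum co-chaperone on the opposite strand, by 56 bases in the annotation. *P58IPK* was higher in *rse1-1*, with 136 ± 22.5 CPM in *rse1-1* and 48.0 ± 3.11 CPM in WT (SD, n = 3 each, log2 fold change 1.50, edgeR adjusted p = 5.10e-09). The strand setting of the counting is not given in the sources used here, so reads of the shared bases cannot be assigned between these genes.

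The nearest annotated gene was read on each side of these 4 genes too, and only *P58IPK* was higher in *rse1-1*. Log2 fold changes were -0.23 at *PHB2* (AT1G03860) beside *FLA9*, -0.91 at AT2G04790 beside *FLA7*, -0.63 at AT5G03180 beside *FLA11* and -0.78 at AT5G06400 beside *FLA17*, all called lower. The other 3 neighbours had at most 2 counts in any library.

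**Figure D1:**
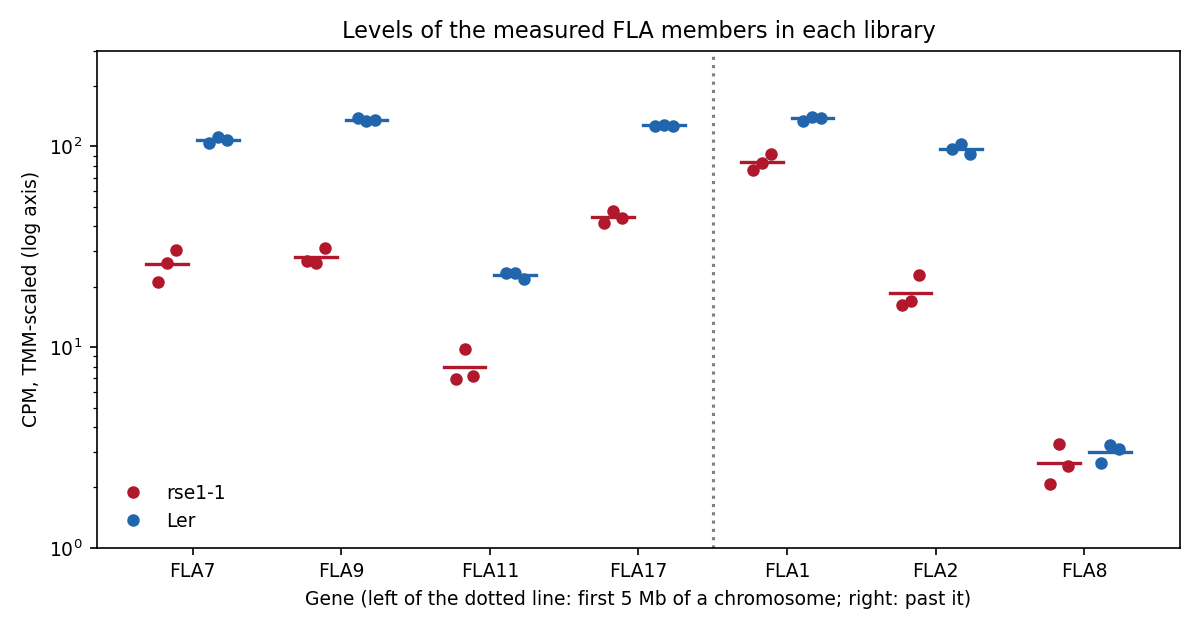
CPM of the 7 measured FLA genes in each library, on a log axis, with *rse1-1* in red left of WT (L*er*) in blue and bars at the mean of 3 libraries. All *rse1-1* points of *FLA7*, *FLA9*, *FLA11* and *FLA17*, left of the dotted line, lie below the WT points, while those of *FLA8*, at 2.08 to 3.29 CPM in *rse1-1* and 2.64 to 3.25 CPM in WT, overlap.

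Among all genes tested, 6234 were called lower and 6314 higher in *rse1-1* with TMM scaling, and 7633 lower and 5112 higher with upper quartile scaling. Over the 7 measured FLA genes, 6 were called lower and 0 higher, where 38.8% of all genes tested were called higher. Their median log2 fold change was -1.55, against -0.01 over all genes tested.

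Cell type markers were read beside these genes, against 38.3% lower and 38.8% higher calls among all genes tested. Both measured dividing cell markers fell, and the list of 5 summed to 11.3 to 17.0 CPM in *rse1-1*, against 41.6 to 52.8 CPM in WT. *KNOLLE*, the syntaxin of the cell plate, had 8.87 ± 1.82 CPM in *rse1-1* and 29.7 ± 3.68 CPM in WT (SD, n = 3 each). Of the 7 epidermis markers, 6 were tested and 5 fell, and they summed to 211 to 237 CPM in *rse1-1*, against 786 to 813 CPM in WT. All 8 measured mesophyll markers fell, summing to 8929 to 10531 CPM in *rse1-1*, against 14954 to 16595 CPM in WT. Among them *RBCS1A*, past the first 5 Mb, had only 55.1 CPM in *rse1-1* and 70.3 CPM in WT. Whether these counts came from *RBCS1A* was not tested. Of the 4 phloem markers only *SUC2* was measured, and the sum of 502 to 524 CPM in *rse1-1*, against 581 to 614 CPM in WT, was almost all its own. Of the 3 guard cell markers *MYB60* and *FAMA* fell and *KAT1* rose, and they summed to 183 to 194 CPM in *rse1-1*, against 158 to 161 CPM in WT. The defining markers *CYCB1;1*, *CDKB2;1* and *HIS4* of dividing cells, *PDF1* of the epidermis and *APL*, *PP2-A1* and *SWEET11* of the phloem were at or near 0. The part of these cell types in the FLA values was not tested.

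Levels between genes were compared as CPM per kb of annotated exon. In *rse1-1*, *FLA9* had 24.2 ± 2.31, *FLA17* 18.0 ± 1.26, *FLA7* 15.0 ± 2.68 and *FLA11* 8.77 ± 1.73 CPM per kb. In WT, *FLA9* had 117 ± 1.72, *FLA7* 61.9 ± 1.86, *FLA17* 51.5 ± 0.439 and *FLA11* 25.3 ± 0.992 CPM per kb (SD, n = 3 each). *FLA9* was thus the highest and *FLA11* the lowest of these 4 genes in both genotypes. Within each WT library *FLA7* stood above *FLA17*, and within each *rse1-1* library below it, by little in replicate 3 (17.5 and 17.7 CPM per kb).

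The sizes of the changes were set side by side as ratios of counts within each library, which do not depend on the scaling of libraries. For this, 10 pairs of *FLA7*, *FLA9*, *FLA11*, *FLA17* and their relative *FLA18* were formed, which share genes between them. The *FLA9* to *FLA17* ratio was 0.642, 0.549 and 0.713 in *rse1-1*, against 1.09, 1.05 and 1.07 in WT (log2 difference -0.76), and the *FLA7* to *FLA17* ratio was 0.507, 0.552 and 0.696 in *rse1-1*, against 0.822, 0.863 and 0.852 in WT (log2 difference -0.54). In both pairs the short FLA was scarcer relative to *FLA17* in every *rse1-1* library. The *FLA11* to *FLA17* ratio was 0.166, 0.204 and 0.164 in *rse1-1*, against 0.185, 0.183 and 0.174 in WT, and the genotypes overlapped. The *FLA7* to *FLA9* ratio was 0.789, 1.00 and 0.977 in *rse1-1*, against 0.754, 0.824 and 0.794 in WT, and also overlapped. The share of all gene pairs whose ratios do not overlap was not computed, so the count of such FLA pairs is not read against a background. With 3 libraries against 3, the smallest two-sided p of an exact permutation test is 0.1, which the other 8 pairs reached (adjusted p = 0.125 over the 10 exact tests), so none could pass 0.05.

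**Figure D2:**
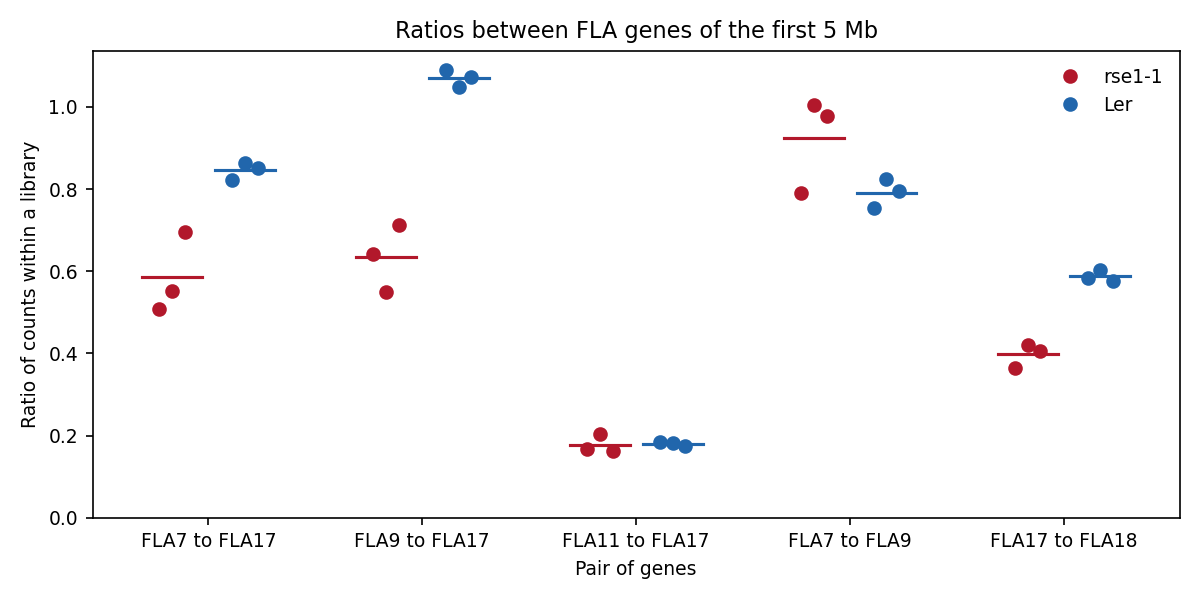
Ratio of the counts of a pair of FLA genes within each library, for 5 of the 10 pairs, with *rse1-1* in red left of WT (L*er*) in blue and bars at the mean of 3 libraries. The points separate for *FLA7* to *FLA17*, *FLA9* to *FLA17* and *FLA17* to *FLA18*, and overlap for *FLA11* to *FLA17* and *FLA7* to *FLA9*.

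The 250 bases before the annotated start of each gene were searched on both strands for 3 motifs, as a description of genes that moved together. These were the binding element of secondary wall MYB factors (SMRE), spelled ACCAAAT or ACCAAAC or ACCAACT or ACCAACC or ACCTAAT or ACCTAAC or ACCTACT or ACCTACC, the W-box of WRKY factors, spelled TTGACC or TTGACT, and the G-box, spelled CACGTG. These motifs do not overlap each other in the windows printed here. The promoters of *FLA7*, *FLA9* and *FLA11*, which hold an SMRE, are shown with motifs in capitals (RefSeq, TAIR10.1). They lie at chr2:1676467-1676716 on the plus strand, chr1:983545-983794 on the minus strand and chr5:753658-753907 on the minus strand.
FLA7 promoter: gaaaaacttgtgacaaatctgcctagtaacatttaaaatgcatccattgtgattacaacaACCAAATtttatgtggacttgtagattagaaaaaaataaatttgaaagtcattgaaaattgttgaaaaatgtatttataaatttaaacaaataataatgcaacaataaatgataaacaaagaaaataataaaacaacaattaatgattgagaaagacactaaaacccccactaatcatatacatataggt
FLA9 promoter: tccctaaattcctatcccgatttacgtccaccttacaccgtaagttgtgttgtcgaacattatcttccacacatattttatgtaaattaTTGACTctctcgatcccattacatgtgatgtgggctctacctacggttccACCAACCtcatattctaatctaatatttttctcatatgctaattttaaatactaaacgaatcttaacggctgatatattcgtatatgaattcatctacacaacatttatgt
FLA11 promoter: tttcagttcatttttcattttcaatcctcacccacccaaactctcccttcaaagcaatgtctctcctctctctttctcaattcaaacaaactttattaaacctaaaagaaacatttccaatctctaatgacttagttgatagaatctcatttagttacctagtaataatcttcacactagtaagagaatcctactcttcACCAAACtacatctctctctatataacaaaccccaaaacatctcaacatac
The SMRE starts at -190 in *FLA7*, -111 in *FLA9* and -51 in *FLA11*, counted from the annotated start, and *FLA9* also has a W-box at -161. The window of *FLA17* holds none of the 3 motifs. Windows were not cut at neighbouring genes. That of *FLA11* runs into AT5G03180, 182 bases from *FLA11*, and that of *FLA2* into AT4G12731, 52 bases from *FLA2*. Of 26711 promoters of the same length, 29.4% hold an SMRE, 28.5% a W-box and 6.58% a G-box. Among the genes past the first 5 Mb, *FLA10*, *FLA12* and *FLA13* hold an SMRE, and *FLA1*, *FLA2* and *FLA8* do not. Of the other measured genes of the family, *FLA4*, which was not called, holds an SMRE at -200. *FLA16*, *FLA18* and *FLA19*, which were called lower, hold no SMRE, and of these only *FLA18* lies in the first 5 Mb. The part of the motif in the FLA values was not tested. A match is a run of letters in the Col-0 sequence and not a measured binding site, and whether L*er* holds the same letters was not tested.

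Of the 6 genes past the first 5 Mb, 3 were measured and 2 of these fell. *FLA2* (AT4G12730, chr4:7491227-7493080, minus strand), whose protein has a pair of fasciclin domains and a GPI anchor signal, had 16.2, 17.0 and 22.9 CPM in *rse1-1*, against 96.9, 102 and 92.2 CPM in WT. The genotypes were far apart in every library. The mean was 18.7 ± 3.68 CPM in *rse1-1* and 97.1 ± 5.06 CPM in WT (SD, n = 3 each), with a log2 fold change of -2.38 (SE 0.109, edgeR adjusted p = 5.61e-11). The next locus, AT4G12731, 52 bases away on the same strand, also fell, with 10.3 ± 1.24 CPM in *rse1-1* and 66.4 ± 2.66 CPM in WT (SD, n = 3 each, log2 fold change -2.70, edgeR adjusted p = 3.66e-12). *NUDT7*, a nudix hydrolase gene 1099 bases away on the other side, rose (log2 fold change 1.95).

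*FLA1* (AT5G55730, chr5:22558044-22560541, minus strand), whose loss impairs shoot regeneration in tissue culture, had 76.6, 83.2 and 91.9 CPM in *rse1-1*, against 135, 140.2 and 139 CPM in WT. The genotypes did not overlap. It fell the least of the 6 called genes, with a mean of 83.9 ± 7.69 CPM in *rse1-1* and 138 ± 2.88 CPM in WT (SD, n = 3 each) and a log2 fold change of -0.72 (SE 0.0758, edgeR adjusted p = 5.59e-07). Its nearest neighbour AT5G55720, 318 bases away, had 33.9 ± 3.13 CPM in *rse1-1* and 24.0 ± 2.27 CPM in WT (SD, n = 3 each), and rose (log2 fold change 0.49, edgeR adjusted p = 3.72e-04). On the other side *CRR21*, a plastid RNA editing factor gene 1307 bases away, had 8.52 ± 1.29 CPM in *rse1-1* and 70.5 ± 2.89 CPM in WT (SD, n = 3 each, log2 fold change -3.07, edgeR adjusted p = 2.40e-12).

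*FLA8* (AT2G45470, chr2:18742477-18744322, minus strand), also known as *AGP8*, was near the lower end of what was measured. It had 32, 34 and 32 counts in *rse1-1*, against 26, 33 and 36 in WT, and the genotypes overlapped. The mean was 2.64 ± 0.610 CPM in *rse1-1* and 2.99 ± 0.319 CPM in WT (SD, n = 3 each), with a log2 fold change of -0.21 (SE 0.225, edgeR adjusted p = 0.394). A difference was not detectable at this depth. *FLA8* shares an exact run of 53 bases with *FLA10*, the longest shared by any FLA pair, which is shorter than an untrimmed read.

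*FLA10*, *FLA12* and *FLA13* were not measured. *FLA10* (AT3G60900, chr3:22499292-22501239), close in sequence to *FLA8*, had 3, 1 and 4 counts in *rse1-1*, against 2, 4 and 4 in WT. *FLA12* (AT5G60490, chr5:24325457-24326827), the partner of *FLA11* in stem secondary walls, and *FLA13* (AT5G44130, chr5:17760865-17762089) were at 0 in all 6 libraries. Both neighbours of *FLA10* were also at 0 in all libraries, and those of *FLA12* had at most 1 count in any library. Beside *FLA13*, the locus of *PHB7*, a prohibitin gene 401 bases away, had 78, 63 and 84 counts in *rse1-1*, against 432, 433 and 558 in WT. A count of 0 at these loci says nothing on whether the genes were expressed, since *LHCB1.3* stood at 0 too.

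The other 11 genes of the FLA family were read beside these, and 4 of them were measured. *FLA18* (AT3G11700), the closest relative of *FLA17* among these genes and the only measured one of the 11 in the first 5 Mb, had 114, 114 and 108 CPM in *rse1-1*, against 217, 214 and 219.5 CPM in WT. It fell to 51.6% of its WT level without overlap (112 ± 3.52 CPM in *rse1-1* and 217 ± 3.05 CPM in WT, SD, n = 3 each, log2 fold change -0.95, SE 0.0654, edgeR adjusted p = 4.63e-09). The *FLA17* to *FLA18* ratio was 0.366, 0.421 and 0.406 in *rse1-1*, against 0.584, 0.602 and 0.576 in WT, so *FLA17* was the scarcer of the pair in both genotypes, and the ratio was lower in every *rse1-1* library than in each WT library. Per kb of exon, *FLA18* had 51.5 ± 1.62 CPM in *rse1-1*, above *FLA9*, and 99.8 ± 1.41 CPM in WT, below *FLA9* (SD, n = 3 each). The longest exact run shared by *FLA17* and *FLA18* is 31 bases.

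*FLA16* (AT2G35860), of the same group as *FLA17*, had 6.83, 7.64 and 5.42 CPM in *rse1-1*, against 37.0, 41.1 and 46.7 CPM in WT (log2 fold change -2.66, SE 0.130, edgeR adjusted p = 1.04e-10). It fell without overlap, but lies past the first 5 Mb and is overlapped by AT2G35859 in the annotation. *FLA19*, which lies just past the first 5 Mb, had 24, 12 and 12 counts in *rse1-1*, against 31, 51 and 48 in WT, and fell with few counts (log2 fold change -1.71, SE 0.259, edgeR adjusted p = 2.58e-05). *FLA4* (*SOS5*), which acts in root cell expansion under salt, had 70.7 ± 6.11 CPM in *rse1-1* and 62.5 ± 3.63 CPM in WT (SD, n = 3 each). Its genotypes overlapped and it did not pass the test (log2 fold change 0.18, SE 0.0804, edgeR adjusted p = 0.0569, with 0.0180 to 0.885 over the alternatives). The other 7 genes were not measured, among them *FLA3* and *FLA14*, which are known from pollen. Over the whole family, 9 of the 11 measured genes were called lower and 0 higher, with a median log2 fold change of -1.55. The shares over all genes tested were 38.3% lower and 38.8% higher.

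**Figure D3:**
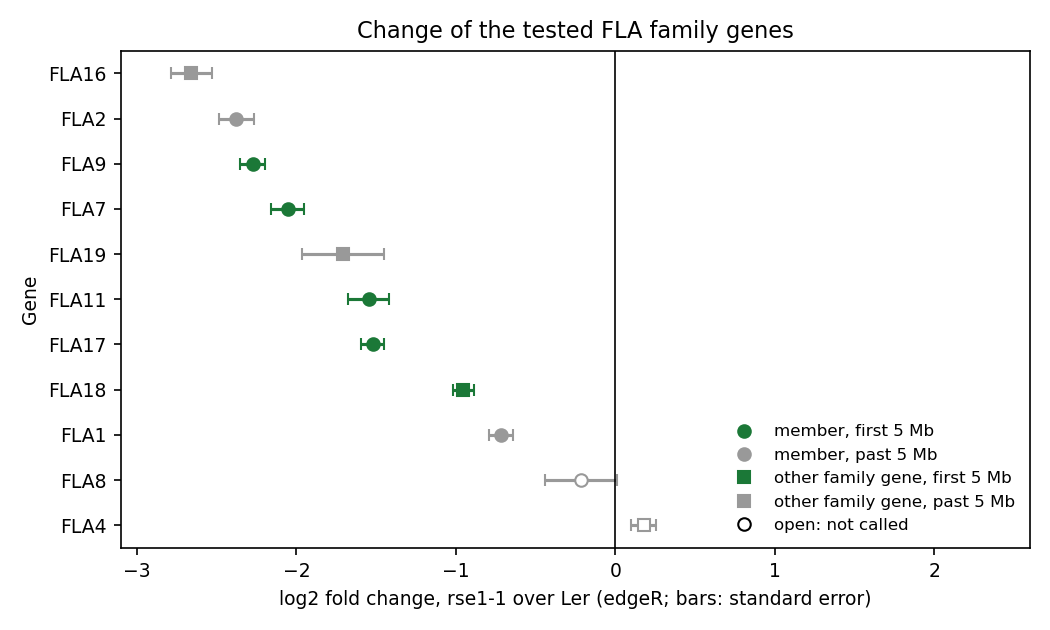
Log2 fold change of *rse1-1* over WT (L*er*) for the 11 measured FLA family genes, with bars of 1 standard error from edgeR. Circles are the 7 measured genes followed here and squares the other 4, green marks the first 5 Mb of a chromosome and grey the rest, and open symbols were not called. Values run from -2.66 in *FLA16* to 0.18 in *FLA4*, and all 5 green symbols lie at or below -0.95.

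Classical arabinogalactan proteins and AG peptides, which carry the same kind of glycan without fasciclin domains, moved in both directions. Of 24 genes 12 were measured, and their median log2 fold change was -0.60. Of the 12, 7 were called lower and 3 higher, against 38.3% and 38.8% of all genes tested. With at least 10 counts required in every library, 11 were tested, 5 were called lower and 3 higher, and the median was -0.23. *AGP9* fell to 35.4 ± 5.58 CPM in *rse1-1*, against 157 ± 10.8 CPM in WT (SD, n = 3 each), and *AGP14* fell as well (log2 fold change -1.79, edgeR adjusted p = 6.88e-08). *AGP24* rose to 61.6 ± 5.84 CPM in *rse1-1*, against 4.84 ± 0.693 CPM in WT, and *AGP7* to 68.1 ± 7.85 CPM in *rse1-1*, against 28.3 ± 0.853 CPM in WT (SD, n = 3 each). All 4 lie past the first 5 Mb. Near the chromosome starts, *AGP4* fell (log2 fold change -1.95). *AGP12*, at 9, 6 and 5 counts in *rse1-1* and 19, 16 and 12 in WT, was tested only through its WT counts. *AGP15* had 234 ± 11.7 CPM in *rse1-1* and 258 ± 9.82 CPM in WT (SD, n = 3 each), and was not called (edgeR adjusted p = 0.0844).

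Enzymes that hydroxylate proline or build arabinogalactan glycans were called in both directions, in shares near those of all genes tested (38.3% lower and 38.8% higher). Of 18 genes 16 were tested, 6 were called lower and 7 higher, with a median log2 fold change of 0.01. *FUT6* and *GALT6*, with 0 to 3 counts in WT libraries, were tested only through their *rse1-1* counts, and with at least 10 counts required in every library 14 were tested, 6 were called lower and 5 higher, with a median of -0.09. *FUT4*, a fucosyltransferase gene, had 196 ± 11.2 CPM in *rse1-1* and 4.13 ± 1.79 CPM in WT (SD, n = 3 each), and *HPGT3*, for a hydroxyproline galactosyltransferase, 26.2 ± 1.41 CPM in *rse1-1* and 9.02 ± 0.248 CPM in WT. The prolyl 4-hydroxylase genes *P4H5* and *P4H2* rose as well (log2 fold changes 2.02 and 1.55, edgeR adjusted p = 1.47e-10 and 1.31e-09). *P4H2* was the only one of these 4 genes in the first 5 Mb, with 67.2, 58.1 and 66.2 CPM in *rse1-1*, against 24.6, 20.6 and 20.5 CPM in WT. Of the other 4 enzyme genes near the chromosome starts, *GALT29A* fell to 7.62 ± 0.696 CPM in *rse1-1*, against 16.5 ± 0.984 CPM in WT, and *GLCAT14B* to 30.4 ± 1.36 CPM in *rse1-1*, against 42.5 ± 3.47 CPM in WT. *GALT3* was not called (log2 fold change -0.15, edgeR adjusted p = 0.110). *FUT6* had 49, 25 and 38 counts in *rse1-1*, against 0 in each WT library. Its *rse1-1* mean of 2.88 CPM was 9.55-fold the highest WT limit, 0.301 CPM for 3 counts on unscaled library totals. This bounds the WT side only and leaves out the spread of the *rse1-1* libraries.

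Enzymes that make and attach the GPI anchor changed little. Of the 5 genes tested, *SETH1* was called lower (log2 fold change -0.21, edgeR adjusted p = 0.0292) and 4 were not called, where 77% of all genes tested were called. That call was lost with DESeq2 and without a filter on low counts, and 4 of the 5 were called lower with upper quartile scaling. The median log2 fold change was -0.03, close to that of all genes tested.

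Secondary wall and xylem genes, a list without *FLA11* and *FLA12*, were mostly lower. Of 22 genes 15 were tested, with a median log2 fold change of -1.12. Of the 15, 11 were called lower and 2 higher, against 38.3% and 38.8% of all genes tested. *CESA4*, a cellulose synthase gene of secondary walls, had 152 ± 18.5 CPM in *rse1-1* and 623 ± 7.40 CPM in WT, and *CESA7* 10.6 ± 1.51 CPM in *rse1-1* and 31.3 ± 2.42 CPM in WT (SD, n = 3 each). *XCP2*, a xylem cysteine protease gene, fell to 35.6 ± 2.28 CPM in *rse1-1*, against 87.8 ± 2.86 CPM in WT, whereas *SND2*, a NAC factor gene of secondary walls, rose to 74.7 ± 12.7 CPM in *rse1-1*, against 12.3 ± 3.67 CPM in WT. All 4 lie past the first 5 Mb. Near the chromosome starts, the xylem regulator genes *MYB83* (log2 fold change -1.53) and *VND4* (-0.89) fell with few counts, and *LBD30* was not called (log2 fold change -0.08, edgeR adjusted p = 0.771). The list summed to 365 to 417 CPM in *rse1-1*, against 921 to 943 CPM in WT. Most of the WT sum was *CESA4* alone, at 616, 630 and 624 CPM, against 133, 152 and 170 CPM in *rse1-1*. The *CESA4* locus thus stood far above *CESA7* in WT, and whether its counts came from *CESA4* was not tested. The part of the list in the *FLA11* values was not tested.

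**Figure D4:**
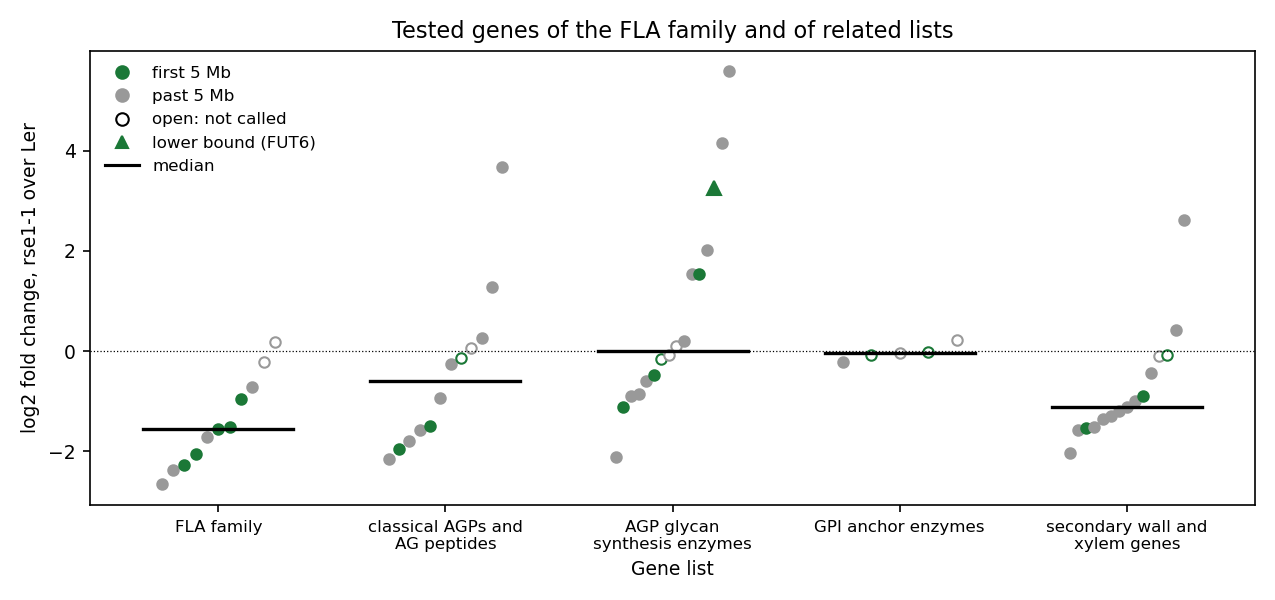
Log2 fold change of *rse1-1* over WT (L*er*) for each tested gene of the whole FLA family and of 4 related lists, in green for the first 5 Mb of a chromosome and grey for the rest, with open circles not called and a black bar at the median. The FLA family median is -1.55, against -0.60, 0.01, -0.03 and -1.12 for the lists from left to right. The triangle, at 3.26, sets the *rse1-1* mean of *FUT6* against the highest WT limit of 3 counts, a bound on the WT side only.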

How the data were processed

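PolyA RNA of *rse1-1* and L*er* leaves was sequenced as single reads from a stranded TruSeq kit, in 3 libraries each. Before depositing them, the authors made whole read counts per gene, without normalization: reads were trimmed with Trimmomatic 0.32.3, aligned with TopHat2 2.0.9 to a L*er* genome rebuilt from TAIR10, cleared of PCR duplicates with Picard 1.119 and counted where uniquely mapped with HTSeq 0.6.1. The annotation version and the strand setting are not given in the sources used here. Entries naming no gene took 47.0% to 48.7% of a library, 36.1% to 37.7% of it as no feature, and were left out of library sizes and tests. Of 33602 loci, 32835 matched the RefSeq TAIR10.1 gene table, from which names, positions, exon lengths and all sequences come.

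Genotypes were compared in R 4.3.3 by edgeR 4.0.16 (TMM scaling, filterByExpr with a minimum count of 10, quasi-likelihood test, genotype alone in the model, Benjamini-Hochberg adjustment over 16294 genes, threshold 0.05). The standard error is the log2 fold change over the square root of F. CPM are scaled by TMM. The floor of 3 counts covers counting error only. The alternatives were DESeq2 1.42.0, limma-voom (limma 3.58.1), RLE scaling, upper quartile scaling, library size alone, no filter, a minimum of 10 counts in all 6 libraries, a block by replicate number, fits that left out 1 library each, and, for the calls, an absolute log2 fold change over 1 and the edgeR test for changes beyond 1 on the log2 scale. The scripts were tested on simulated counts.

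The genes named were the 10 FLA genes, the other measured FLA genes, the nearest annotated gene on each side of an FLA gene, *RSE1*, and of each other list up to 4 genes with the smallest adjusted p. The 10 genes, the lists, the rule and the split at 5 Mb were chosen with earlier results of these data known. *AGP4*, *AGP12*, *AGP15*, *GALT3*, *GALT29A*, *GLCAT14B*, *FUT6*, *GALT6*, *MYB83*, *VND4* and *LBD30* fall outside the rule: they were picked with their values already seen, all but *GALT6* as list genes of the first 5 Mb, as were the cell type markers named.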

Additional observations from a re-analysis of the deposited data

How the results depend on the processing

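The call of 6 FLA genes as lower and 0 as higher was kept under every alternative run, except that 5 were called lower with an absolute log2 fold change over 1 and with the edgeR test for changes beyond 1 on the log2 scale, where *FLA1* was not called. The 4 genes of the first 5 Mb were called lower under all of these. Over the alternatives, log2 fold changes ran from -2.47 to -2.22 for *FLA9*, -2.25 to -1.90 for *FLA7*, -1.74 to -1.44 for *FLA11*, -1.71 to -1.46 for *FLA17*, -2.57 to -2.26 for *FLA2*, -0.91 to -0.64 for *FLA1* and -0.41 to -0.04 for *FLA8*, whose adjusted p ran from 0.115 to 0.890. Upper quartile scaling moved the median over all genes tested to -0.20, against -0.01 with TMM. The calls over all genes numbered 12548, and 5175 or 3846 with those stricter rules.

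Over the whole FLA family 1 gene, *FLA4*, was called higher with RLE scaling, library size alone, no filter, at least 10 counts in every library and the replicate block, and 0 to 1 with a library left out, where it was *rse1-1* replicate 3. With upper quartile scaling the *FLA4* log2 fold change was -0.01. Of the secondary wall genes, 1 was called higher with upper quartile scaling. Of the GPI anchor enzymes, 0 were called lower with DESeq2, no filter and at least 10 counts in every library, 4 with upper quartile scaling, and 0 to 1 with a library left out. The call was lost without *rse1-1* replicate 1 or 3 or L*er* replicate 2 or 3. Without L*er* replicate 3, 1 was called higher, and 0 without each other library. The cause of these changes was not tested.

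Same-numbered libraries of the genotypes did not deviate together (correlations 0.04, 0.08 and -0.07), so the replicate numbers were not read as pairs. With the replicate block 6 FLA genes were called lower, with log2 fold changes of -2.28 for *FLA9*, -2.06 for *FLA7*, -1.55 for *FLA11*, -1.52 for *FLA17*, -2.38 for *FLA2*, -0.72 for *FLA1* and -0.20 for *FLA8*. At a mean of 32.2 counts, *FLA8* could show only changes well above its standard error of 0.225, and *FLA10*, *FLA12* and *FLA13* none.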
